A study of Mus musculus with 36 samples.

Results

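The mRNA levels of the cytosolic ribosomal protein genes were followed in the mouse left ventricle after myocardial infarction (MI). A gene was a member when its symbol was Rpl or Rps followed by a digit, or Rplp0, Rplp1, Rplp2 or Rpsa. Symbols that start with Rps6k, which are kinases, and symbols with a hyphen, most of which are pseudogenes, were left out. The rule took 86 of the 16415 genes in the expression table, 51 with Rpl or Rplp symbols (large, 60S subunit) and 35 with Rps symbols or Rpsa (small, 40S subunit). One gene taken by its symbol, Rps19bp1, codes for a protein that binds Rps19 and is not itself a subunit, and another, Rps4l, is annotated as a transcribed pseudogene. Levels were FPKM, the fragments of a transcript scaled to its length and to the mapped fragments of the library. Of the 86 members, 85 passed a filter of at least 1 FPKM in at least 3 libraries, which left 12858 genes for the tests, and the member that did not pass was Rpl39l.

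C57BL/6 male mice, 8 weeks old at surgery, had the left anterior descending coronary artery tied off (MI) or the same surgery with the artery left patent (sham). Left ventricles were taken after 1 day, after 1 week or after 8 weeks, the 3 stages, which gave 6 groups: MI at 1 day and sham at 1 day, MI at 1 week and sham at 1 week, MI at 8 weeks and sham at 8 weeks. Each group had 3 mRNA libraries, 18 in all, and another 18 small RNA libraries among the 36 samples of the series were not used here. RNA came from pooled ventricles, and the number of animals in an RNA pool is not known from the labels or methods (for proteomics, tissue of 3 mice was combined per group). Nothing says that the 3 libraries of a group came from separate pools, so a p-value covers no more than the spread among these libraries, which may be technical. No genetic change was stated for any group. Where 3 values are given for the 3 stages, they run from 1 day to 8 weeks.

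Ribosomal proteins and ribosomal RNA make up the small subunit, which reads the mRNA, and the large subunit, which joins the amino acids. Cells make these proteins in near equal numbers, and many of the mRNAs start with a C followed by a run of C and T bases (a 5′ terminal oligopyrimidine or TOP motif), through which growth signals control their translation. Some members have a paralog used in certain tissues. Rpl3l is the paralog of Rpl3 in heart and skeletal muscle, and Rpl3 lies close to the site of the large subunit where the peptide bond forms.

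The mix of cells differed strongly between MI and sham ventricles. All 12 cardiomyocyte markers were found, and their summed level was 12804 to 16194 FPKM in MI against 34728 to 37178 FPKM in sham ventricles at 1 day, 2780 to 8543 FPKM in MI against 37315 to 42407 FPKM in sham at 1 week, and 14310 to 33223 FPKM in MI against 39815 to 41176 FPKM in sham at 8 weeks. The 8 neutrophil markers summed to 6228 to 10156 FPKM in MI and 18.8 to 39.0 FPKM in sham at 1 day, the 7 fibroblast markers to 10563 to 12792 FPKM in MI and 346 to 422 FPKM in sham at 1 week, and the 8 proliferation markers to 56.3 to 84.5 FPKM in MI and 4.2 to 8.3 FPKM in sham at 1 week. The MI libraries at 8 weeks differed among themselves, since replicate 3 held 1372.6 FPKM of adipocyte markers (5 of 6 found) and 304.4 FPKM of skeletal muscle markers (9 of 10 found), while replicate 1 held 1.9 and 21.0 FPKM. In bulk tissue, fewer cells of a type and less RNA per cell cannot be told apart, and the part of these shifts in any result below was not tested. The median log2 fold change of all 12858 genes, MI over sham, was 0.09, 0.79 and 0.52 at the 3 stages, and values are therefore also given relative to it.

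The start sites of 4 members show how the TOP motif appears in these genes. Each sequence holds the 20 bases before and the first 10 bases from the start that RefSeq annotates in build GRCm38.p6, on the strand of the gene, with capitals for an unbroken run of C and T that begins at the start. Rps6, a small subunit protein that is phosphorylated on growth signals, lies at chr4:86857358-86857387 on the minus strand. Rps18, a protein of the head of the small subunit, lies at chr17:33955656-33955685 on the minus strand, and Rplp2, a protein of the acidic stalk that recruits translation factors, at chr7:141447631-141447660 on the plus strand. Rpl3l is shown with both of its annotated starts, chr17:24727806-24727835 and chr17:24732665-24732694 on the plus strand, and neither begins with such a run. Only 14 of the 65 members with a promoter sequence had a run of at least 5 bases at the exact start, so its absence does not set Rpl3l apart.
Rps6: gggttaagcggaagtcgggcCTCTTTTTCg
Rps18: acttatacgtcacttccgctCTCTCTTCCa
Rplp2: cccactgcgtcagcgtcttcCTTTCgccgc
Rpl3l, first start: cagctgagtgttctagctctgtcatttgac
Rpl3l, second start: ccagtgtcatcaacagctacagtgccccaa

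RefSeq promoter sequences (250 bases before to 50 after the start) matched 65 of the 86 members. A C exactly at the annotated start followed by at least 4 C or T bases was found in 14 of the 65 (21.5%), against 318 of 10240 tested genes (3.11%), 3.01% of all 27025 genes with a promoter sequence and 0 of 67 mitochondrial ribosomal protein genes. When the run could begin within 5 bases of the annotated start, 24 of the 65 members (36.9%) and 1847 of the 10240 tested genes had it. The sequence CCGGAAG, the core of an ETS site, was found on either strand of the promoter in 26 of the 65 members, 35.8% of the mitochondrial ribosomal protein genes and 19.6% of the tested genes. CACGTG, the E-box that Myc can bind, was found in 9.23% of the members and 11.7% of the tested genes. The 14 members with the exact run had median log2 fold changes of 0.61, 1.27 and 1.197 at the 3 stages, and the 50 tested members with a promoter sequence but without the run had 0.66, 1.35 and 1.19.

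Cytosolic ribosomal protein mRNA took a larger share of the measured transcriptome in MI than in sham ventricles at every stage. At 1 day the members made up 10.6%, 11.0% and 10.6% of the summed FPKM in the 3 MI libraries, against 6.71%, 6.81% and 7.11% in the sham libraries. At 1 week they made up 13.9%, 12.6% and 12.1% in MI and 6.91%, 6.00% and 6.16% in sham. At 8 weeks they made up 10.7%, 11.9% and 11.97% in MI and 6.32%, 6.09% and 5.84% in sham. No MI library overlapped a sham library, and the highest shares were those of MI at 1 week, with a mean of 12.9% ± 0.947 in MI against 6.36% ± 0.487 in sham (SD, n = 3 each). A share falls when other genes take more of the total, so it was also computed against a total without the 100 most abundant other genes, which gave 14.6% in MI and 10.9% in sham at 1 day, 16.2% in MI and 10.4% in sham at 1 week, and 16.4% in MI and 10.03% in sham at 8 weeks.

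**Figure D1:**
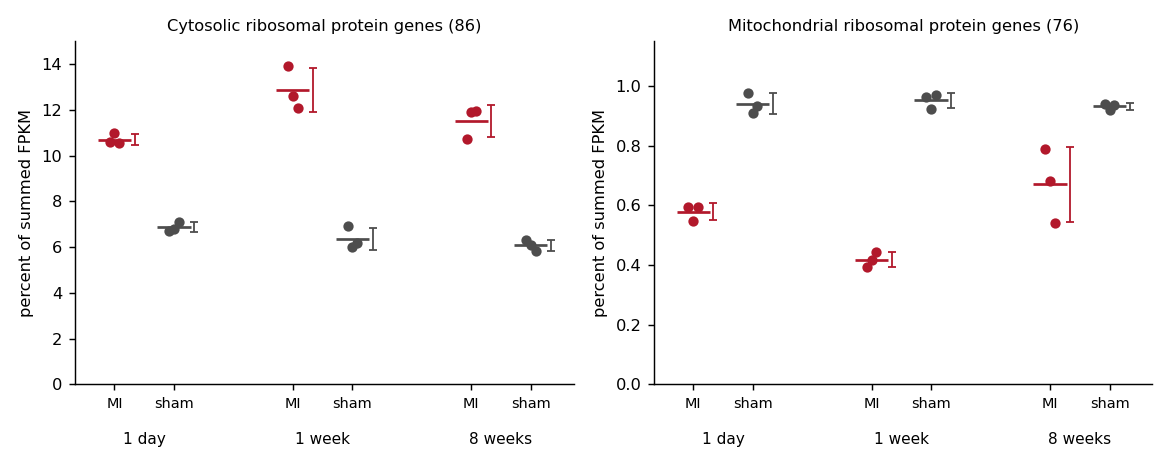
Share of the summed FPKM taken by the 86 cytosolic ribosomal protein genes and by the 76 mitochondrial ribosomal protein genes, in percent, in each of the 18 libraries (points, n = 3 per group, with the mean as a line and the SD as a bar). At each stage the cytosolic share was above every sham library in MI, while the mitochondrial share was below every sham library in MI (means of 0.579% in MI against 0.941% in sham at 1 day).

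The increase covered nearly all members. Of the 85 tested members, 82 rose in MI at 1 day and 1 fell, where 39.7% of all tested genes rose and 30.6% fell (limma on log2(FPKM + 1), Benjamini-Hochberg adjusted p under 0.05 over 12858 genes). At 1 week 83 rose and 1 fell, where 72.8% of all tested genes rose and 16.5% fell, and when libraries were scaled by median-ratio factors, which set the typical gene to no change, 59 rose and 8 fell. At 8 weeks 82 rose and 1 fell, where 70.4% of all tested genes rose and 10.6% fell, and with median-ratio factors 66 rose and 3 fell. Here and below, shares of all tested genes refer to the FPKM as deposited and are no background for counts with median-ratio factors. With those factors the median of the members lay 0.29 above that of all genes at 1 week and 0.49 above it at 8 weeks. Rpl3l was the member that fell at each stage. The members that passed in neither direction were Rps4l and Rps29 at 1 day, Rpl26 at 1 week, and Rps27 and Rpl26 at 8 weeks. Leaving out any 1 library gave 79 to 83, 81 to 83 and 82 to 83 members higher at the 3 stages.

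Read without a test, the separation of the groups was similar. All 3 MI libraries were above all 3 sham libraries in 83 of 85 members at 1 day (45.4% of all tested genes), 82 at 1 week (74.8%) and 83 at 8 weeks (66.3%). The groups overlapped for Rps4l at 1 day, for Rpl26 and Rpl30 at 1 week and for Rpl26 at 8 weeks. The median log2 fold change of the members was 0.63 at 1 day, 1.29 at 1 week and 1.198 at 8 weeks, which lay 0.54, 0.50 and 0.67 above the median of all genes. It was above the median of all genes for 84, 75 and 81 members. On the linear FPKM scale the median ratio of MI to sham means was 1.56, 2.46 and 2.31 at the 3 stages.

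**Figure D2:**
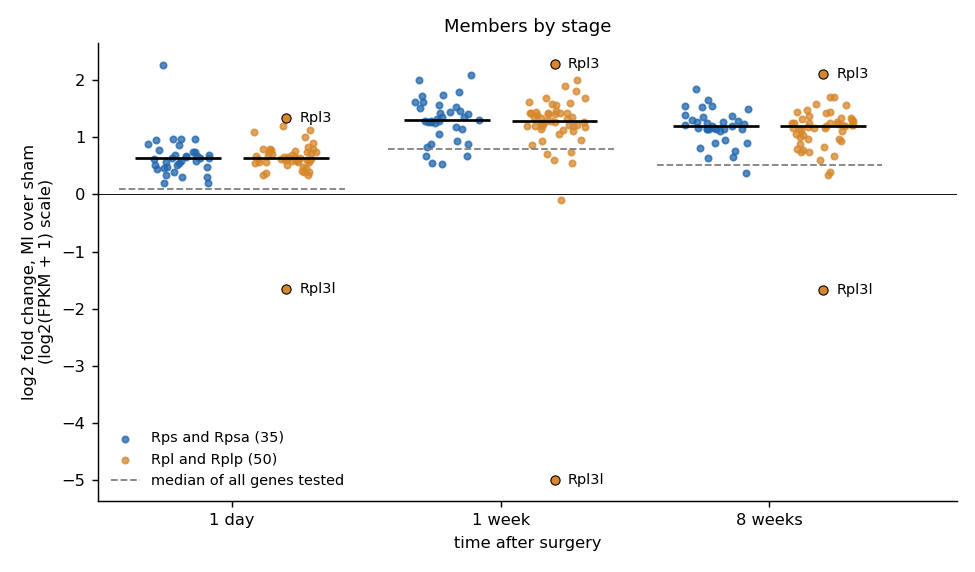
Log2 fold change, MI over sham on the log2(FPKM + 1) scale, of the 85 tested members at the 3 stages, with the 35 Rps and Rpsa genes and the 50 Rpl and Rplp genes side by side. Black lines are medians, dashed lines mark the median of all 12858 genes (0.09, 0.79 and 0.52), and Rpl3l lies apart from the rest at −1.65, −5.003 and −1.67.

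Both subunits took part to a similar extent. The 35 genes counted as small subunit are those with Rps symbols or Rpsa, so they include Rps19bp1 and the pseudogene Rps4l. Of these 35, 33 rose at 1 day, 35 at 1 week and 34 at 8 weeks. Their median log2 fold changes were 0.63, 1.31 and 1.196. Of the 50 tested large subunit genes, 49 rose at 1 day, 48 at 1 week and 48 at 8 weeks, with medians of 0.63, 1.29 and 1.201. Over all tested genes, 39.7%, 72.8% and 70.4% rose at the 3 stages on the FPKM as deposited. With median-ratio factors 23 small subunit genes rose and 4 fell at 1 week and 28 rose and 1 fell at 8 weeks, while 36 large subunit genes rose and 4 fell at 1 week and 38 rose and 2 fell at 8 weeks. These medians then stayed above 0, as did that of all 85 members, which was then 0.50, 0.32 and 0.49 at the 3 stages. The ratio of summed small to summed large subunit FPKM was 0.847 ± 0.0039 in MI and 0.878 ± 0.0107 in sham at 1 day, 0.857 ± 0.0057 in MI and 0.878 ± 0.0129 in sham at 1 week, and 0.884 ± 0.0210 in MI and 0.885 ± 0.0123 in sham at 8 weeks (SD, n = 3 each). At 1 day and 1 week the MI ratios lay below all sham ratios, and at 8 weeks they overlapped.

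Rpl32, a large subunit protein that served as the reference gene for qRT-PCR in the study, moved with the other members. It had 639, 736 and 711 FPKM in MI against 397, 398 and 418 FPKM in sham at 1 day. It had 1122, 957 and 898 FPKM in MI against 418, 326 and 368 FPKM in sham at 1 week. It had 702, 805 and 822 FPKM in MI against 339.6, 311 and 324 FPKM in sham at 8 weeks. Every MI library was above every sham library, and the log2 fold changes were 0.78 ± 0.11, 1.42 ± 0.11 and 1.25 ± 0.11 (SE, limma adjusted p = 1.65e-05, 1.22e-08 and 1.83e-07). A transcript expressed relative to Rpl32 would therefore be divided by a value whose mean was 1.72 times as high in MI as in sham at 1 day, 2.68 times at 1 week and 2.39 times at 8 weeks on the FPKM scale, and 1.56, 1.37 and 1.46 times after division by the median-ratio factors.

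The stalk proteins Rplp0, Rplp1 and Rplp2 together form the arm of the large subunit that binds elongation factors. Their fold changes differed in size, and the difference between the genes was not tested. Rplp1 had 1506, 1364 and 1292 FPKM in MI against 547, 467 and 500.0 FPKM in sham at 1 week, and 1199, 1225 and 1332 FPKM in MI against 475, 449 and 459 FPKM in sham at 8 weeks. Rplp0 had 918, 830.5 and 782 FPKM in MI against 355, 310.3 and 345 FPKM in sham at 1 week, and 505, 568 and 611 FPKM in MI against 336, 330.0 and 334 FPKM in sham at 8 weeks. The log2 fold change of Rplp0 was 0.60, 1.32 and 0.75 at the 3 stages, and the drop of 8 weeks relative to 1 week was −0.58 ± 0.14 (SE, limma adjusted p = 0.00343). That of Rplp1 was 0.75, 1.46 and 1.44, and its difference between 8 weeks and 1 week was −0.02 (limma adjusted p = 0.923). That of Rplp2 was 0.48, 0.94 and 0.98, although with median-ratio factors its value at 1 week was −0.03. With the same factors the value of Rplp0 at 8 weeks was 0.03 and no longer passed the threshold (limma adjusted p = 0.753).

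Among the small subunit proteins, Rps6 had 324, 367 and 340.0 FPKM in MI against 183, 180.2 and 198 FPKM in sham at 1 day. It had 496, 427 and 404 FPKM in MI against 188, 155 and 175 FPKM in sham at 1 week, and the groups did not overlap at either stage. Its log2 fold change was 0.87, 1.35 and 1.25 at the 3 stages. Rpsa, a small subunit protein that also acts as a laminin receptor, changed by 0.67, 1.36 and 1.11, and Rps18, a common internal reference, by 0.88, 1.42 and 1.14. Rpl13a, a large subunit protein known for a role in silencing inflammatory transcripts after it leaves the ribosome, changed by 0.77, 1.69 and 1.70.

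The members were not equal in size of change. The 74 members with a mean of at least 100 FPKM had an SD of log2 fold changes of 0.19, 0.33 and 0.29 at the 3 stages, and 72, 65 and 68 of them lay within 0.5 of their own median. Rpl3 was the highest of the 74 at each stage. Relative to the median of the 74, 22 members were above it at all 3 stages, 22 below it at all 3 and 30 on both sides. The largest mean offsets above the median were 0.86 for Rpl3, 0.55 for Rps12, 0.48 for Rpl12, 0.46 for Rpl39 and 0.42 for Rps16. Offsets below it included −0.59 for Rps2, −0.49 for Rpl36, −0.46 for Rpl24 and −0.46 for Rps29. Across the 74 genes, which are not independent replicates, the log2 fold changes of 1 week and 8 weeks had r = 0.87, those of 1 day and 1 week r = 0.73, and those of 1 day and 8 weeks r = 0.63, each stage having its own sham libraries.

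**Figure D3:**
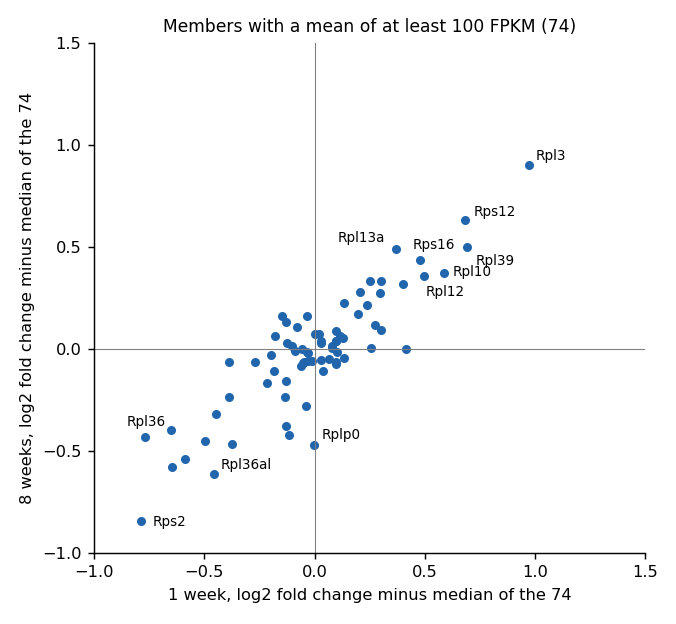
Log2 fold change, MI over sham, minus the median of the 74 members with a mean of at least 100 FPKM, at 1 week (horizontal axis) and at 8 weeks (vertical axis), 1 point per member. Rpl3, Rps12, Rpl12 and Rpl39 lie at the upper right and Rps2 and Rpl36 at the lower left, with r = 0.87 across the 74 genes.

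Rps12, a small subunit protein, was the most abundant member in MI at 1 week. It had 1853, 1536 and 1435 FPKM in MI against 466, 351 and 384 FPKM in sham at that stage, a log2 fold change of 2.005 ± 0.14 (SE, limma adjusted p = 3.11e-09). Rpl39, one of the smallest large subunit proteins and a lining of the exit tunnel, had 1468, 1203 and 1118 FPKM in MI against 372, 274 and 293 FPKM in sham at 1 week, a log2 fold change of 2.01 ± 0.15 (SE, limma adjusted p = 4.26e-09). At 1 week all MI libraries of both genes were more than 2 times any sham library. Rpl12, which sits at the base of the stalk, changed by 1.199 at 1 day, 1.82 at 1 week and 1.57 at 8 weeks.

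Rps2, a small subunit protein near the mRNA entry, changed least among the abundant members at 1 week and 8 weeks. It had 785, 894 and 875 FPKM in MI against 618, 622 and 578 FPKM in sham at 1 day. It had 849, 839 and 737 FPKM in MI against 598, 485 and 589.9 FPKM in sham at 1 week. It had 603, 674 and 702 FPKM in MI against 518, 495 and 510.0 FPKM in sham at 8 weeks. The groups did not overlap at any stage and the log2 fold changes were 0.49, 0.54 and 0.37 (limma adjusted p = 0.000759, 0.000199 and 0.005), but with median-ratio factors they were −0.43 at 1 week and −0.34 at 8 weeks. Rps29, a zinc-binding small subunit protein, had 681, 713 and 683 FPKM in MI against 603, 563 and 640.1 FPKM in sham at 1 day, a log2 fold change of 0.20 that missed the threshold (limma adjusted p = 0.0621), and it rose by 0.82 at 1 week and 0.76 at 8 weeks, although with median-ratio factors its values were −0.14 and 0.05 and neither passed the threshold.

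A few low members behaved unlike the rest. Rpl26, which binds ribosomal RNA at the outer face of the large subunit, had 75.4, 64.3 and 74.1 FPKM in MI against 28.8, 41.6 and 35.1 FPKM in sham at 1 day, a rise of 1.01 ± 0.24 on the log2 scale (SE, limma adjusted p = 0.00125). At 1 week it had 16.7, 26.7 and 27.5 FPKM in MI against 34.2, 18.8 and 23.7 FPKM in sham, and the groups overlapped (log2 fold change −0.10, limma adjusted p = 0.693), but it fell at 1 week by 1.02 with median-ratio factors, by 0.76 with quantile normalization and by 0.78 in the deposited log2 values (limma adjusted p = 0.000655, 0.00851 and 0.00832). Rps27 was listed at 4.10, 44.0 and 2.36 FPKM in MI against 1.03, 1.68 and 0.840 FPKM in sham at 1 week, so a single MI library carried most of its mean. The log2 fold change of Rps27 at 1 week was 2.09 (limma adjusted p = 0.0117) and 0.94 without MI replicate 2 (limma adjusted p = 0.0755), 1.39 with median-ratio factors (limma adjusted p = 0.0776), and at 1 day it was 2.27 (limma adjusted p = 0.0097) and 1.56 without MI replicate 3 (limma adjusted p = 0.067). The coding sequence of Rps27rt, a retrotransposed copy, was identical to that of Rps27 over 255 of 255 bases, so the split of reads between both is uncertain. Rps27rt held nearly all of their sum, with 1566, 1251 and 1279 FPKM in MI against 621, 495 and 518 FPKM in sham at 1 week. Rpl34 shares its level in the same way with the copy Rpl34-ps1, which matched it at 352 of 354 bases. Rpl34 rose by 1.10, 1.40 and 1.01 at the 3 stages, but with median-ratio factors its value at 8 weeks was 0.31 and no longer passed (limma adjusted p = 0.0805).

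Over the 18 libraries most members followed the mean of the other members. The correlation of a member with the mean of the other members had a median of 0.99, and it was above 0.9 for 76 of 85 members. It was under 0.5 for Rpl26 (0.17) and for Rpl3l (−0.88). These libraries fall into clusters by group, so the values describe the groups as much as the libraries. The same correlation was not computed for genes outside the members. Since the median of all genes was also higher in MI, these counts do not show a trait particular to the members.

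Rpl3l, the muscle paralog of Rpl3, lay opposite to the other members. Its gene is at chr17:24727826-24736143 (GRCm38), where no other annotated gene overlaps it. It had 35.03, 29.9 and 34.7 FPKM in MI against 106, 111 and 101 FPKM in sham at 1 day. It had 1.42, 1.45 and 5.73 FPKM in MI against 99.1, 107 and 121 FPKM in sham at 1 week. It had 40.4, 36.0 and 18.6 FPKM in MI against 92.9, 91.7 and 110.3 FPKM in sham at 8 weeks. All MI libraries were below all sham libraries at each stage, and the lowest level was that of MI at 1 week. The log2 fold change was −1.65 ± 0.31 at 1 day, −5.003 ± 0.31 at 1 week and −1.67 ± 0.31 at 8 weeks (SE, limma adjusted p = 0.000204, 1.18e-09 and 0.000179). Among all 12858 genes, 296, 0 and 16 had a lower log2 fold change at the 3 stages. The fold change at 1 week went beyond that at 1 day by −3.35 ± 0.44 and eased by 3.33 ± 0.44 at 8 weeks (SE, limma adjusted p = 8.38e-06 and 8.38e-05).

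Rpl3 itself moved the other way. Its gene is at chr15:80077781-80083406 (GRCm38). It had 289, 318 and 306 FPKM in MI against 118, 114 and 129 FPKM in sham at 1 day. It had 554, 488 and 474 FPKM in MI against 118, 91.6 and 98.2 FPKM in sham at 1 week. It had 338, 390.1 and 476 FPKM in MI against 93.6, 92.8 and 86.4 FPKM in sham at 8 weeks. Every MI library held more than 2 times the Rpl3 of any sham library. The log2 fold change was 1.33 ± 0.12, 2.29 ± 0.12 and 2.12 ± 0.12 (SE, limma adjusted p = 7.91e-08, 2.83e-10 and 2.05e-09), and 10.3%, 8.28% and 4.24% of all tested genes lay above it at the 3 stages.

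**Figure D4:**
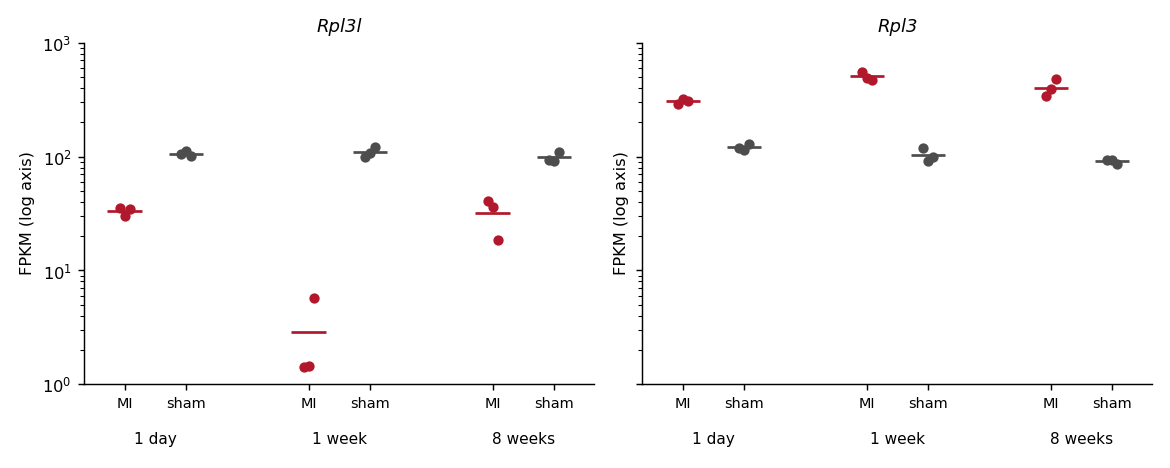
Level of Rpl3l and Rpl3 in each library, in FPKM on a log axis, for MI and sham ventricles at the 3 stages (points, n = 3 per group, lines are means). Rpl3l and Rpl3 are nearly equal in sham ventricles, while in MI at 1 week Rpl3l is at 1.42 to 5.73 FPKM and Rpl3 at 474 to 554 FPKM.

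In sham ventricles both genes were expressed at about the same level, and Rpl3l made up 46.8%, 51.6% and 51.9% of their summed FPKM at the 3 stages. In MI it made up 9.85%, 0.58% and 7.63%. The log2 ratio of Rpl3l to Rpl3, which does not depend on how a library is scaled except through the pseudocount of 1, was −3.16 ± 0.19 in MI and −0.18 ± 0.16 in sham at 1 day. It was −7.21 ± 0.93 in MI and 0.09 ± 0.30 in sham at 1 week, and −3.68 ± 0.82 in MI and 0.11 ± 0.21 in sham at 8 weeks (SD, n = 3 each). The differences were −2.98, −7.30 and −3.79, each with p = 0.1 in a two-sided exact permutation test, the smallest value that 3 against 3 libraries allow. With labels exchanged within each stage, the mean difference over the stages of −4.69 had p = 0.00025 in a two-sided exact permutation test, the smallest that the 8000 relabellings allow, and it was negative at 3 of 3 stages. The sum of both genes was 338 ± 12.2 FPKM in MI and 227 ± 3.58 FPKM in sham at 1 day, 508 ± 41.3 FPKM in MI and 212 ± 11.7 FPKM in sham at 1 week, and 433 ± 58.4 FPKM in MI and 189 ± 6.52 FPKM in sham at 8 weeks (SD, n = 3 each). The coding sequences of Rpl3l and Rpl3 matched at 902 of 1231 aligned bases (73.3%).

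Cardiomyocyte markers fell with Rpl3l, and their part in its change was not tested. Of the 12 markers, 11 fell at 1 day, 12 at 1 week and 7 at 8 weeks, where 30.6%, 16.5% and 10.6% of all tested genes fell. The median log2 fold changes of the markers were −1.37, −3.12 and −0.92. The lowest of them were Pln, which restrains the calcium pump, at −3.15 at 1 day, Tnni3, cardiac troponin I, at −4.06 at 1 week and Atp2a2, the calcium pump, at −1.65 at 8 weeks. The markers with a lower log2 fold change than Rpl3l numbered 5 at 1 day, 0 at 1 week and 0 at 8 weeks. Set against the summed level of the 12 markers, Rpl3l was at 2.22 ± 0.096 FPKM per 1000 FPKM of markers in MI and 2.98 ± 0.190 in sham at 1 day, 0.50 ± 0.177 in MI and 2.71 ± 0.136 in sham at 1 week, and 1.36 ± 0.180 in MI and 2.41 ± 0.234 in sham at 8 weeks (SD, n = 3 each). The MI libraries lay below all sham libraries on this measure too at each stage. Among the MI libraries at 8 weeks, replicate 3 had the lowest Rpl3l (18.6 FPKM), the highest Rpl3 (476 FPKM) and the lowest marker sum (14310 FPKM), and without any 1 library the difference of the log2 ratio at 8 weeks ranged from −4.11 to −3.32.

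The genes whose levels were most like those of Rpl3l over the 18 libraries were Fitm1, a lipid droplet protein of muscle (r = 0.9963), Ndufa12, a subunit of respiratory complex I (r = 0.9933), Art3, a member of the ADP-ribosyltransferase family (r = 0.9932), and Cox5a and Cox7b, subunits of cytochrome c oxidase (r = 0.9924 each). The other ribosomal protein genes had a median r of −0.88 with Rpl3l. These values are a description, since the libraries cluster by group.

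A second translation component with a muscle paralog also had a smaller paralog share in MI. The part of the cell mix in this was not tested, and the cardiomyocyte markers had median log2 fold changes of −1.37, −3.12 and −0.92. Eef1a2 is the form of elongation factor 1A used in mature muscle and neurons, and Eef1a1 is the form used in most cells. Eef1a2 made up 8.64%, 1.61% and 11.5% of the summed FPKM of both in MI at the 3 stages, against 46.6%, 46.3% and 53.3% in sham. At 1 week Eef1a2 had 33.4, 55.9 and 82.7 FPKM in MI against 336, 344 and 423 FPKM in sham. The log2 fold change of Eef1a2 was −1.57, −2.74 and −0.72 (limma adjusted p = 5.45e-05, 6.71e-08 and 0.019), and that of Eef1a1, whose mRNA also carries a TOP motif, was 1.65, 3.08 and 2.62. The call of Eef1a2 at 8 weeks was lost without MI replicate 3 of that stage (−0.46, limma adjusted p = 0.113) and without sham replicate 3 (−0.68, limma adjusted p = 0.0506).

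Other paralog pairs among the members had smaller differences of the log2 ratio than Rpl3l and Rpl3 at each stage, and their shares are given as a description. The exact permutation test within stages also gave p = 0.00025 for Rps4l to Rps4x, Rpl39l to Rpl39 and Eef1a2 to Eef1a1. That p-value, 0.000625 after Benjamini-Hochberg adjustment over 10 pairs, is therefore not particular to Rpl3l. Rpl36al made up 42.4%, 29.7% and 28.5% of the summed FPKM of Rpl36al and Rpl36a in MI at the 3 stages, against 42.5%, 40.7% and 41.5% in sham. Rpl22l1, the paralog of Rpl22, made up 61.8%, 63.7% and 57.9% of their sum in MI against 55.0%, 52.8% and 53.2% in sham. Rpl7l1 made up 5.19%, 2.56% and 2.57% of the sum with Rpl7 in MI against 3.96%, 3.93% and 4.25% in sham, so it was above sham at 1 day and below it at the later stages. Rps4l made up 3.01%, 2.53% and 2.28% of the sum with Rps4x in MI against 3.51%, 3.77% and 3.61% in sham, and the annotation lists Rps4l as a transcribed pseudogene. Rps27l made up 91.5%, 91.4% and 97.9% of the sum with Rps27 in MI against 98.7%, 98.8% and 99.2% in sham. These shares leave out Rps27rt, whose coding sequence is identical to that of Rps27, so they do not show that Rps27l is the main form. At 1 week Rps27rt averaged 1365 FPKM in MI and 545 FPKM in sham, against 155 and 97.3 FPKM for Rps27l. The log2 ratio of Rps27l to Rps27 differed by −1.81, −1.42 and −0.53 between MI and sham, which rests on the low and uneven Rps27 described above. Rpl39l, the paralog of Rpl39 known from testis, was close to 0 throughout, with 0.319, 0.340 and 0.370 FPKM in MI against 0, 0.133 and 0.223 FPKM in sham at 1 day and no MI library above 0.424 FPKM. Its log2 ratio to Rpl39 differed by −0.54, −1.78 and −1.67, on Rpl39l levels below the pseudocount of 1.

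**Figure D5:**
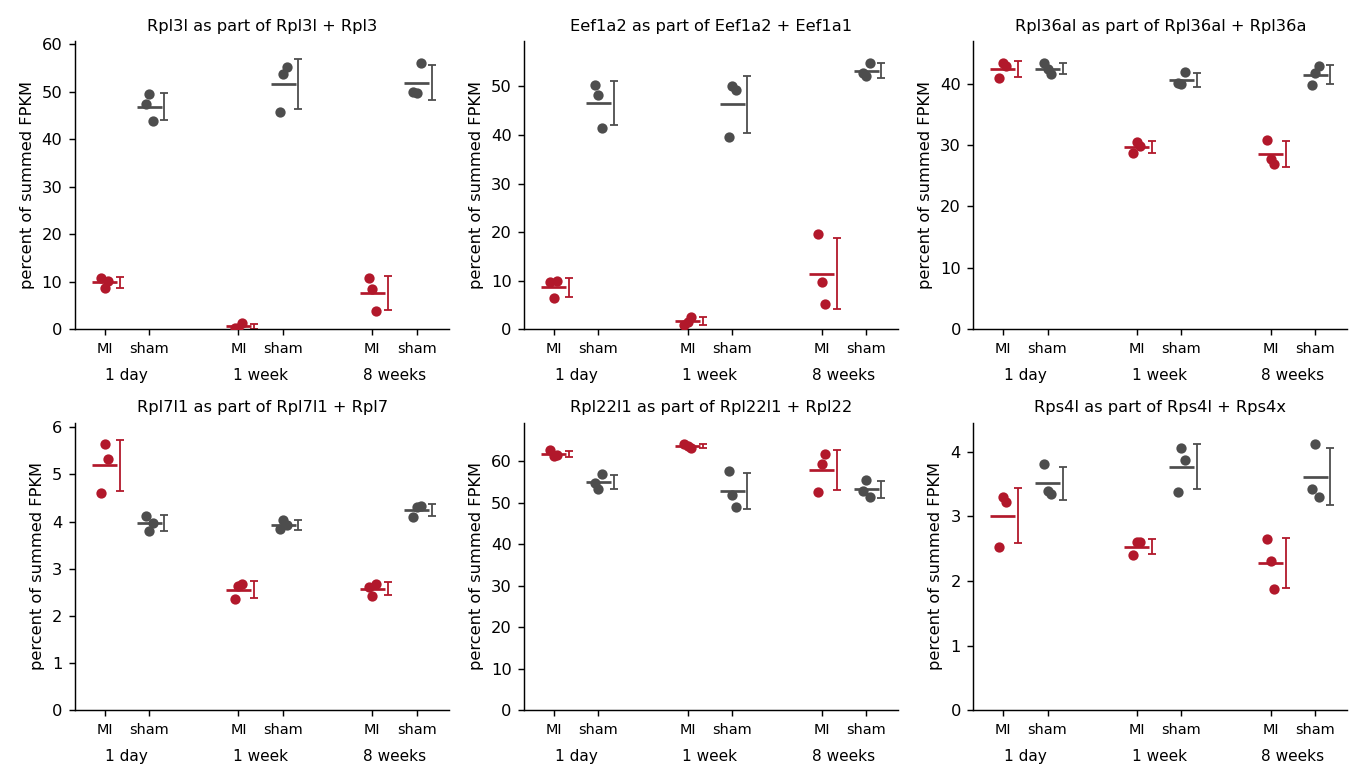
Percent of the summed FPKM of each pair that came from the paralog named first (Rpl3l of Rpl3l and Rpl3, Eef1a2 of Eef1a2 and Eef1a1, Rpl36al, Rpl7l1, Rpl22l1 and Rps4l of their pairs), in each library by group (points, n = 3, lines are means and bars SD). Rpl3l and Eef1a2 lie near 50% in sham and between 0.58% and 11.5% on average in MI, while the other pairs shown differ by less.

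The change of most members was larger at 1 week than at 1 day, except with median-ratio factors. In the test of the difference between both fold changes, 73 members rose and 3 fell, where 60.0% of all tested genes rose and 11.8% fell, and the 3 were Rpl3l, Rps19bp1 (−0.41) and Rpl26 (−1.11). This was the result that depended most on scaling, since with median-ratio factors 1 rose and 18 fell. The median difference of the members was 0.70, only 0.14 above the median of all genes. Between 1 week and 8 weeks few members passed the test of the difference between both fold changes, with 2 rising and 4 falling, where 17.1% of all tested genes rose and 29.9% fell, and with median-ratio factors 9 rose and 1 fell. The 2 that rose were Rpl3l and Rps19bp1 (0.35), and the 4 that fell were Rpl10a (−0.36), Rpl29 (−0.36), Rps26 (−0.52) and Rplp0 (−0.58). Of the 12 fits that left out 1 library of these stages, 7 lost the call of Rps19bp1 and 6 that of Rpl10a. With median-ratio factors Rpl10a, Rpl29 and Rps26 no longer passed. The 4 became 16 without MI replicate 3 at 8 weeks and 8 without MI replicate 3 at 1 week, and the median of the members was −0.13 (0.07 above that of all genes).

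Fau and Gnb2l1 belong to the ribosome but carry names that the symbol rule did not take. Fau, which codes for ubiquitin-like protein fused to a small subunit protein, had 703, 593 and 592 FPKM in MI against 207, 167 and 184 FPKM in sham at 1 week, and its log2 fold change was 1.10 at 1 day, 1.75 at 1 week and 1.57 at 8 weeks. Gnb2l1, the scaffold protein Rack1 of the small subunit, changed by 0.64, 1.69 and 1.11.

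Genes that build ribosomes followed another time course. Of 43 ribosome biogenesis factors, 42 rose and 1 fell at 1 day, where 39.7% of all tested genes rose and 30.6% fell. Their median log2 fold change was 1.24, and 42 rose under every scaling tried. At 1 week 35 rose and 1 fell, where 72.8% of all tested genes rose, and at 8 weeks 36 rose and 0 fell, where 70.4% rose. The medians of 0.66 at 1 week and 0.49 at 8 weeks lay below those of all genes (0.79 and 0.52). At 1 week and 8 weeks the direction depended on scaling, since with median-ratio factors 4 rose and 22 fell at 1 week and 6 rose and 17 fell at 8 weeks, and the medians were then −0.17 and −0.08, with quantile normalization −0.17 and −0.16, and in the deposited log2 values −0.18 and −0.16. Gnl3, a nucleolar GTPase of large subunit assembly, had 35.7, 40.6 and 38.6 FPKM in MI against 7.60, 7.71 and 7.67 FPKM in sham at 1 day, a log2 fold change of 2.18, and 0.96 and 0.61 at the later stages, although with median-ratio factors these were 0.08 and −0.03 and neither passed the threshold. Myc, the transcription factor that drives many of these genes, had 24.8, 31.0 and 24.0 FPKM in MI against 1.07, 1.14 and 1.02 FPKM in sham at 1 day, with log2 fold changes of 3.72, 2.07 and 1.47. In the test of 1 week against 1 day, 35 of the 43 biogenesis factors fell and 0 rose, while 73 of the 85 ribosomal protein genes rose (1 rose and 18 fell with median-ratio factors). Over all tested genes, 60.0% rose and 11.8% fell in that test.

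Translation factors were less uniform. Of 35 initiation factors, 19 rose and 3 fell at 1 day, 28 rose and 3 fell at 1 week, and 27 rose and 1 fell at 8 weeks, shares near the 72.8% and 70.4% of all tested genes that rose at the later stages. Their medians were 0.19, 0.73 and 0.37, the last 2 below those of all genes. With median-ratio factors 17 rose and 8 fell at 1 day, 5 rose and 20 fell at 1 week and 3 rose and 21 fell at 8 weeks, with medians of 0.05, −0.21 and −0.29, and quantile normalization and the deposited log2 values gave medians at or below 0 at each stage (−0.08 at 8 weeks in both). Eif4a1, the helicase that unwinds the mRNA leader, rose by 1.88, 1.49 and 0.95, and Eif6, which keeps the subunits apart, by 1.79, 1.27 and 1.00. Of 20 other mRNAs known to carry a TOP motif, 13 rose and 2 fell at 1 day, where 39.7% of all tested genes rose and 30.6% fell. At 1 week 19 rose and at 8 weeks 20 rose, where 72.8% and 70.4% of all tested genes rose. Their medians of 0.56, 1.26 and 0.97 stayed above 0 under every scaling tried (12 rose and 2 fell at 1 week with median-ratio factors). Pabpc1, the poly(A)-binding protein and 1 of these 20, had 203, 191 and 178 FPKM in MI against 27.6, 20.5 and 25.6 FPKM in sham at 1 week, and rose by 1.84, 2.92 and 1.57.

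Mitochondrial ribosomal protein genes, whose products form the separate ribosome inside mitochondria, went in the opposite direction. Of 76, 3 rose and 68 fell at 1 day, 3 rose and 67 fell at 1 week, and 12 rose and 39 fell at 8 weeks. Of all tested genes, 39.7%, 72.8% and 70.4% rose and 30.6%, 16.5% and 10.6% fell at the 3 stages on the FPKM as deposited. The medians of the 76 were −0.66, −0.74 and −0.26 and were negative under every scaling tried (0 rose and 73 fell at 8 weeks with median-ratio factors). Their share of the summed FPKM was 0.579% in MI and 0.941% in sham at 1 day, 0.419% in MI and 0.952% in sham at 1 week, and 0.670% in MI and 0.932% in sham at 8 weeks. Mrpl42 had 50.7, 56.5 and 73.4 FPKM in MI against 318, 296 and 324 FPKM in sham at 1 week, and fell by 1.21, 2.37 and 0.81 on the log2 scale at the 3 stages. Mrpl52 was among the few that rose, by 0.79, 0.62 and 0.70, although with median-ratio factors its value was −0.33 at 1 week and −0.0078 at 8 weeks. The summed cardiomyocyte markers were lower in MI in the same libraries, and their part in the change of the mitochondrial genes was not tested.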

How the data were processed

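Gene expression was measured by RNA-seq in 18 left ventricle libraries. The submitters' processing notes name TopHat2 2.0.13, Bowtie2 2.2.3, Cufflinks 2.2.1 and build mm10, with options not given in the sources used here. The authors deposited FPKM per gene and library, and also log2 values that they had normalized across libraries, which served only as an alternative. Deposited fold changes, p-values, means and SDs of the authors' own comparisons were not used, nor was the small RNA table. The files give no counts, and low FPKM were not whole multiples of a common step, so the depth is unknown and no counting interval is given. The sources used here do not say whether counting used strand, and 19 members overlap another annotated gene and 31 hold small RNA genes, so reads of such genes may not be told apart.

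Values were set to log2(FPKM + 1), genes reaching 1 FPKM in 3 or more libraries were kept, and 1 limma fit of the 6 groups (limma 3.58.1, R 4.3.3, intensity trend) gave fold changes with Benjamini-Hochberg adjusted p-values over all 12858 genes, threshold 0.05. A fold change on this scale understates the change of low genes. The exact permutation tests of the paralog ratios, the shares and the sequence counts were computed in Python 3.11.15 (pandas 2.3.3, numpy 2.4.6, scipy 1.17.1, matplotlib 3.10.9). Scripts were checked on simulated data. No 2 libraries were identical (highest correlation 0.99647). Named genes were the paralog pairs, Rpl32, Rplp0, Rplp1, Rplp2, Rpsa, Rps6, Rpl13a and Rps18, the 3 highest and 3 lowest members per stage, members called against the majority or not tested, up to 3 genes per other list by size of change, and the 5 genes most like Rpl3l. The members, lists and tests were chosen with earlier results of these data known. Rpl36, Rpl24, Rps16, Rpl30, Rpl34, Rps27rt, Rps19bp1, Rpl10a, Rpl29 and Rps26 fell outside that rule and were named after their values were seen. Some genes that the rule would name are not reported here. For the shares, the counted genes and the total were varied. Other alternatives were a pseudocount of 0.1, no filter and a stricter one, TPM, median-ratio factors, quantile normalization, the deposited log2 values, no intensity trend, each stage alone, a replicate block and leaving out each library. Promoter and start sequences, gene positions and gene types are from RefSeq (GRCm38.p6), and coding sequences from GENCODE.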

Additional observations from a re-analysis of the deposited data

Results flagged for a closer look

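The fold change of a number of ribosomal protein genes differed between stages, by the test of the difference itself (limma, adjusted p under 0.05 over 12858 genes). At 1 week minus 1 day the members and pair partners above 0 were Rpl39 (1.21), Rpl10 (1.11), Rps4x (1.07), Rps12 (1.05), Rpl3 (0.96), Rpl22l1 (0.95), Rpl13a (0.92), Rpl36a (0.86), Rpl7 (0.84), Rplp0 (0.72), Rplp1 (0.71), Rpl22 (0.70), Rpsa (0.69), Rps4l (0.68), Rpl32 (0.64), Rpl12 (0.62), Rps29 (0.62), Rps18 (0.54), Rps6 (0.48) and Rplp2 (0.45), in log2 units and on a background where the median of all genes was 0.56. With median-ratio factors 11 of these 20 were below 0. Rpl10, Rps4x, Rps12, Rpl3, Rpl22l1, Rpl13a, Rpl36a and Rpl7 stayed above 0 but no longer passed the threshold. With TPM the calls of Rpl12, Rpl32, Rplp2, Rps18, Rps29 and Rps6 were lost. Quantile normalization and the deposited log2 values each lost those of Rpl12, Rplp2, Rps18, Rps4l and Rps6. The members called below 0 at 1 week minus 1 day were Rpl3l (−3.35), Rpl26 (−1.11) and Rps19bp1 (−0.41), under every scaling tried. At 8 weeks minus 1 week, where the median of all genes was −0.20, Rpl3l (3.33) and Rps19bp1 (0.35) were above 0, and Rplp0 (−0.58), Rps26 (−0.52), Rpl10a (−0.36) and Rpl29 (−0.36) below 0. Of these members, Rpl3l differed between stages by the largest amount in both tests.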

How the results depend on the processing

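Scaling moved the members' values most. With median-ratio factors the median log2 fold change of the members was 0.50, 0.32 and 0.49 at the 3 stages (0.29 and 0.49 above all genes at the later stages), 8 and 3 members fell at 1 week and 8 weeks, and from 1 day to 1 week 1 rose and 18 fell with a median of −0.12 (−0.011 relative to all genes). From 1 week to 8 weeks 9 then rose and 1 fell, median 0.12. With TPM the medians were 0.99 at 1 week and 0.92 at 8 weeks (0.34 and 0.54 relative), from 1 day to 1 week 5 fell with a median of 0.38 (0.046 relative), and from 1 week to 8 weeks 8 fell. With quantile normalization the medians were 0.98 at 1 week and 0.87 at 8 weeks (0.69, 0.97 and 0.96 relative at the 3 stages), 3 fell at 1 week, from 1 day to 1 week 6 fell with a median of 0.40 (0.41 relative), and from 1 week to 8 weeks 13 fell (−0.10 relative). With the deposited log2 values they were 1.03 and 0.86 (0.69, 1.01 and 0.92 relative at the 3 stages), 3 fell at 1 week, from 1 day to 1 week 6 fell with a median of 0.41 (0.41 relative), and from 1 week to 8 weeks 9 fell (−0.10 relative). A pseudocount of 0.1 gave relative medians of 0.31 at 1 week, 0.52 at 8 weeks and 0.031 from 1 day to 1 week, and no filter gave 0.75, 0.81 and 0.30, and −0.034 from 1 week to 8 weeks. Against a total without the 100 most abundant other genes, the share was higher in MI by 5.75 percentage points at 1 week and 6.36 at 8 weeks, and with no pseudocount the Rpl3l to Rpl3 difference at 1 week was −7.88. What causes these shifts was not tested.

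Many of the alternatives, such as leaving out a library of another stage, cannot move a fold change, so a count of kept directions overstates stability. Of 3696 results for 44 named genes over the 3 stages and all alternatives, 3630 kept their direction and side of the threshold, 28 lost a call, 15 gained one and 23 reversed, all 23 under another scaling. With median-ratio factors these were Rpl36al (−0.10), Rpl7l1 (−0.20), Rplp2 (−0.032), Rps2 (−0.43), Rps27l (−0.29), Rps29 (−0.14), Rps4l (−0.034), Rps19bp1 (−0.30) and Mrpl52 (−0.33) at 1 week and Rpl36al (−0.11), Rpl7l1 (−0.28), Rps2 (−0.34), Rps4l (−0.015), Gnl3 (−0.034) and Mrpl52 (−0.0078) at 8 weeks. Rpl7l1 at 1 week was −0.0045 with quantile normalization and −0.0044 in the deposited log2 values, Rps19bp1 was −0.28 and −0.29, and at 8 weeks Rpl7l1 was −0.13 in both, where Rps2 was −0.066 and −0.071. From 1 day to 1 week, median-ratio factors reversed Rpl12 (−0.21), Rpl22 (−0.11), Rpl32 (−0.19), Rplp0 (−0.11), Rplp1 (−0.12), Rplp2 (−0.38), Rps18 (−0.29), Rps29 (−0.21), Rps4l (−0.10), Rps6 (−0.35) and Rpsa (−0.14).

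Leaving out 1 library at a time gave 79 to 83, 81 to 83 and 82 to 83 members higher at the 3 stages with 1 lower throughout, medians of 0.59 to 0.68, 1.22 to 1.36 and 1.13 to 1.28, and 70 to 74 higher and 3 to 4 lower from 1 day to 1 week. From 1 week to 8 weeks 1 to 2 rose and 3 to 16 fell (16 without MI replicate 3 at 8 weeks, 8 without MI replicate 3 at 1 week), with a relative median of 0.03 to 0.13. The Rpl3l to Rpl3 difference ranged from −3.07 to −2.88, −7.83 to −6.98 and −4.11 to −3.32, and over the stages from −4.87 to −4.53.

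The deviations of same-numbered MI and sham libraries from their own group means correlated by −0.09 to 0.29, not over 0.1 in each pair. With 3 libraries per group, this does not settle whether the numbers pair the samples. With the replicate number as a block, 82, 83 and 82 members were higher at the 3 stages, 72 from 1 day to 1 week, and the mean Rpl3l to Rpl3 difference of −4.69 had p = 0.00391 (exact permutation test). The unknown depth and 3 libraries per group limit what can be said of low members such as Rps27 and Rpl39l.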
